A study of Rattus norvegicus with 6 samples.

Results

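The genes described here encode the receptors for GABA and glutamate, together 47 of the 23800 features in a table of transcript levels from rat lumbar dorsal root ganglia. They were chosen by gene symbol, which took 18 subunits of the GABA-A receptor (its rho subunits included), 2 of the GABA-B receptor, 4 of the AMPA receptor, 5 of the kainate receptor, 7 of the NMDA receptor, 8 metabotropic glutamate receptors and a delta receptor group of 3 that includes Grid1 and Grid2ip. Grid2ip encodes an intracellular partner of the delta receptor and not a receptor, and it came in through its symbol. Of the 47 genes, 27 reached 1 FPKM (fragments per kilobase, a level scaled to transcript length and to library size) in at least 3 of the 6 samples and were tested.

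Ganglia L3 to L5 were taken on day 17 from the injected side of Sprague Dawley rats. In the bone cancer pain group (BCP, 3 samples) the left tibia had received 10 µL of medium with living cells of MRMT-1, a line of rat breast carcinoma. In the sham group (sBCP, 3 samples) it had received the same cells after boiling, so both groups carry the drilled bone and the injection. The labels give no age or sex, do not say whether a sample was 1 animal or a pool, and do not state that samples came from separate animals, so the p-values measure only the spread between these samples. Values of a gene are given below in the order BCP replicates 1, 2 and 3 and sBCP replicates 1, 3 and 4.

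GABA and glutamate each act through ion channels and through receptors coupled to G proteins. GABA-A receptors are chloride channels of several subunits, usually alpha, beta and gamma, and GABA-B receptors are pairs of Gabbr1 and Gabbr2 that dampen calcium channels and transmitter release. AMPA, kainate and NMDA receptors are cation channels opened by glutamate, and the metabotropic receptors of group III (Grm4, Grm6, Grm7 and Grm8) lower cyclic AMP. Sensory neurons of the ganglion release glutamate in the spinal cord, and many of these receptors work at their central terminals, where they set how much transmitter is released. Since a ganglion holds neurons and glia together, fewer cells of a type and less RNA per cell cannot be told apart in these values.

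The summed FPKM of the whole table lay between 479167 and 495494 per library, and the depth in reads is unknown. All 15 genes of a pan-neuronal list were above the filter, with summed levels of 12150 to 13489 FPKM in BCP and 10931 to 13800 FPKM in sBCP. Of 9 measured markers of central nervous tissue 7 stayed under 0.5 FPKM in every library and Olig2, which defines oligodendrocytes, was listed at 0 in all 6. The other 2, Mog and Gfap, were at 1.61 to 2.17 FPKM and at 4.47 to 7.57 FPKM. Of 10 skeletal muscle markers limma called 9 lower in BCP (adjusted p under 0.05). They are among the 23 called lower of all 13710 tested features (0.168%). These 9 differed by 3.39 to 5.37 on log2(FPKM + 1), which understates the change of low genes. They summed to 14.02 to 22.37 FPKM in BCP and to 519 to 905 FPKM in sBCP. The other marker was Pvalb, which is also a marker of large myelinated neurons. BCP replicate 2 stood apart in axon injury genes, with 224 FPKM of Npy against 2.05 to 5.92 FPKM elsewhere, and in macrophage markers, with a sum of 167 FPKM against 29.0 to 70.6 FPKM.

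The promoters of 4 genes at high, middle and low levels in the ganglion are shown, chosen with levels and motif matches known. Among receptor genes whose promoter was found, only Gabrb1 and Gabrb2, both low, hold the motif marked in them. That match therefore follows from the choice. Gabbr1 had the highest level of all 47 genes. Gabrg1 lies in the same gene cluster as Gabrb1 and was well expressed, while Gabrb1 and Gabrb2 were near 0. The sequences are the 250 bases before each gene's start, 5′ to 3′ on the gene's strand, from RefSeq in build GRCr8. For Gabrb1 the window is chr14:36902894-36903143 (minus strand), for Gabrb2 chr10:27439543-27439792 (plus strand), for Gabrg1 chr14:37750042-37750291 (plus strand) and for Gabbr1 chr20:1499237-1499486 (minus strand). Capitals mark the palindromic consensus of the factor NRF1 in Gabrb1 and Gabrb2, the CCAAT box (read here as ATTGG on the other strand) in Gabrg1, and the GC box GGGCGG or its reverse complement in Gabbr1.
Gabrb1: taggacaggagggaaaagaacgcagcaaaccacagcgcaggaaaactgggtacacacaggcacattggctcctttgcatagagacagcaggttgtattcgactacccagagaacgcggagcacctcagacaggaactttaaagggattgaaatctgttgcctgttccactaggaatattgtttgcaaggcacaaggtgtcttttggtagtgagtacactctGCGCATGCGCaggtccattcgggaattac
Gabrb2: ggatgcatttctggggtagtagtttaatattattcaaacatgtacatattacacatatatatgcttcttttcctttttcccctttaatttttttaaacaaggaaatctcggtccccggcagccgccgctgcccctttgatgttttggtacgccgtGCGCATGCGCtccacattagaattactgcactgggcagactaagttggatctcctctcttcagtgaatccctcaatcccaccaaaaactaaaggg
Gabrg1: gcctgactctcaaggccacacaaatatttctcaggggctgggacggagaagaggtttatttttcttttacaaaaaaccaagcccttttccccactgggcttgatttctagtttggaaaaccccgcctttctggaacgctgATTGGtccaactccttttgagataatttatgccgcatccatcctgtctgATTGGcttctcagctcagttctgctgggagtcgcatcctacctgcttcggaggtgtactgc
Gabbr1: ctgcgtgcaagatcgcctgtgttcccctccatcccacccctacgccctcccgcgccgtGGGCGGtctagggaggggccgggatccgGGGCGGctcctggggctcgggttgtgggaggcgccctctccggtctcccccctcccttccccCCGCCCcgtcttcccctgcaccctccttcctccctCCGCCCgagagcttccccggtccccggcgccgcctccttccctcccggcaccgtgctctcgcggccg

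The NRF1 consensus, which reads the same on both strands, stood in 2 of the 31 windows found for 30 of the receptor genes, and these were Gabrb1 and Gabrb2. It was held by 0.762% of all 33469 windows from RefSeq. The GC box stood in 13 of the 31 windows, against 30.5% of all windows, and was found 4 times before Gabbr1. The CCAAT box on either strand stood in 12 of the 31, against 34.0% of all, and was found 2 times before Gabrg1. The motif TATAAA was found in 2 of the 31 (12.9% of all windows), before Gabra3 and Gabrr2, and the cyclic AMP element TGACGTCA in 0 of the 31 (1.59% of all). These motifs do not overlap one another in the 4 printed windows, and the window of Gabrb1 also holds a CCAAT box that is left in lower case. The share of G and C was 75.6% before Gabbr1, 49.2% before Gabrb1, 48.4% before Gabrg1 and 43.2% before Gabrb2, with a median of 51.2% over all windows. A match is a description of the letters and not a site of binding.

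Levels per length spanned a wide range, with the GABA-B receptor at the top. Gabbr1, which binds GABA (chromosome 20, 1955359 to 1984802, in the coordinates of the deposited table, whose build is unknown here), was at 123.3, 120.8 and 122.9 FPKM in BCP against 112, 121 and 129 FPKM in sBCP. Gabbr2, the subunit that couples to the G protein, was at 53.9, 46.8 and 52.1 FPKM in BCP against 49.5, 52.9 and 57.6 FPKM in sBCP. For both genes sBCP replicate 4 was the highest library, and the groups overlapped. The level of Gabbr1 was 2.25 to 2.58 times that of Gabbr2 over the 6 libraries.

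Next in order came Grik1, Grin1 and Grik5, and 7 of the 27 tested genes had a mean of at least 10 FPKM. Ranked by mean level, Gabbr1, Gabbr2, Grik1, Grin1 and Grik5 followed each other with no overlap of neighbouring ranges over the 6 libraries. Of the 26 pairs of neighbours in the full order, 5 were apart in this way, the last being Gabra3 above Grid1. The other pairs had overlapping ranges, so their order is not settled by these samples. The 20 genes under the filter reached at most 0.736 FPKM, and 17 of the 47 stayed under 0.5 FPKM in every library.

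**Figure D1:**
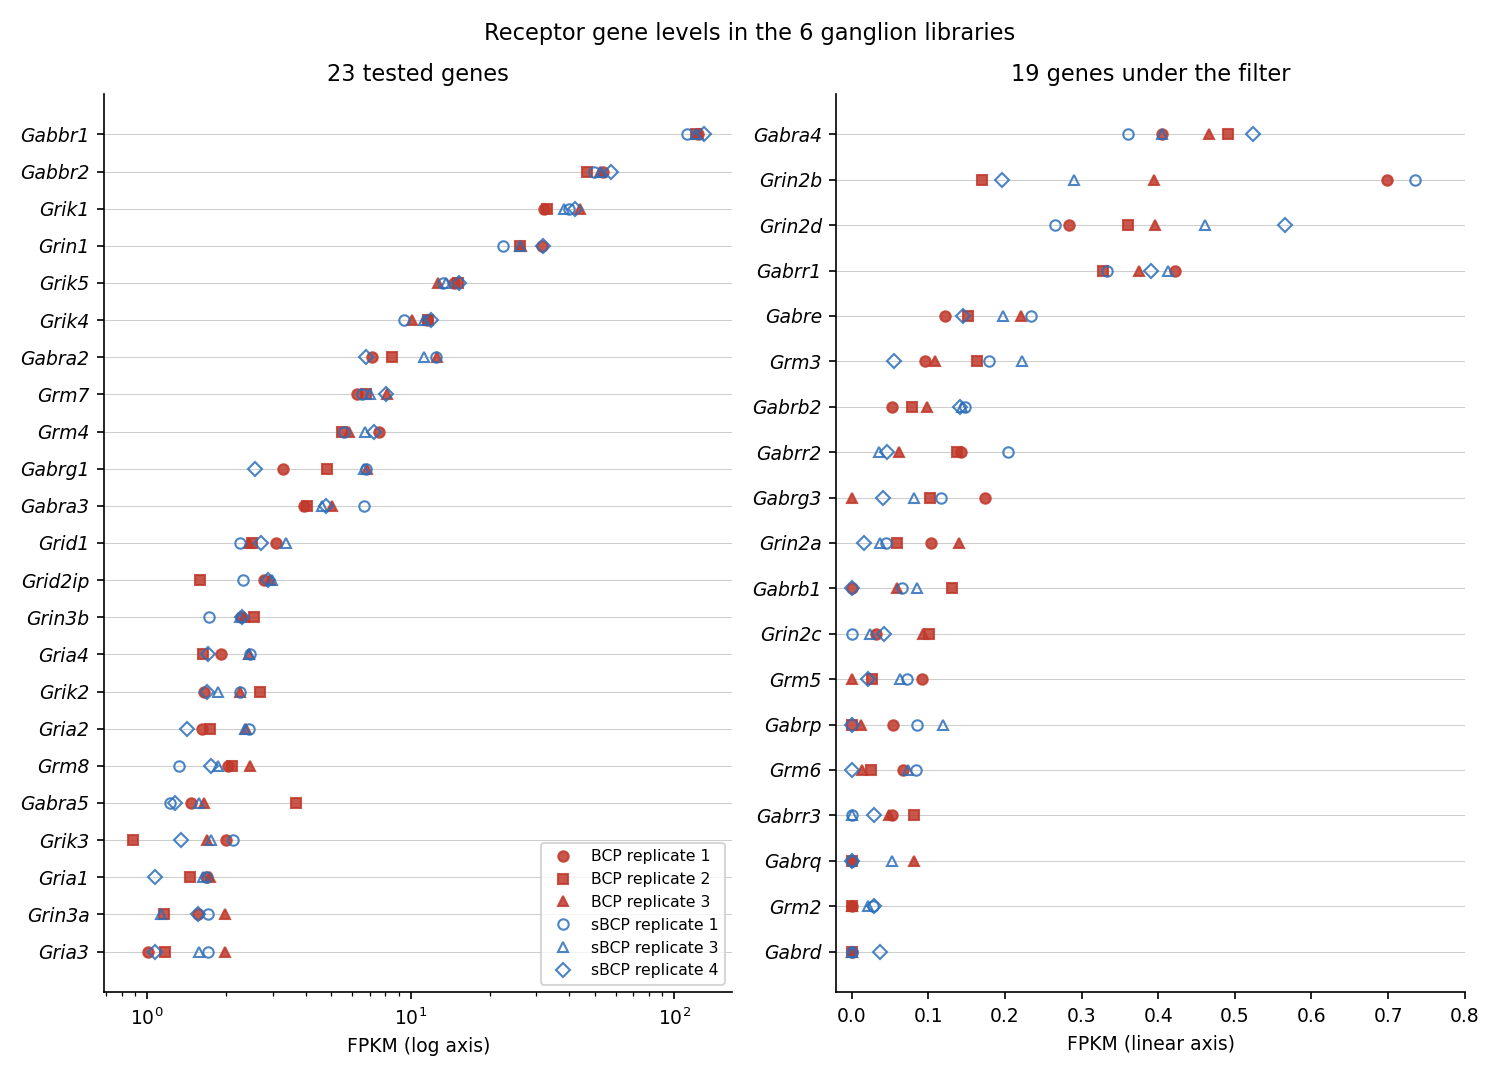
FPKM of 23 tested receptor genes (left, log axis) and of 19 under the filter (right, linear axis) in each of the 6 libraries, with filled red marks for BCP and open blue marks for sBCP. Gabbr1, Gabbr2, Grik1 and Grin1 lie above the rest, red and blue marks mix in most rows, and Gabra5 in BCP replicate 2 stands at 3.66 FPKM apart from its other libraries.

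Among GABA-A receptor genes 7 of 18 were tested. Gabra2, the leading alpha subunit (chromosome 14, 39661968 to 39798302), was at 7.11, 8.46 and 12.6 FPKM in BCP against 12.5, 11.2 and 6.77 FPKM in sBCP. Gabrg1, a gamma subunit with lower benzodiazepine sensitivity, was at 3.27, 4.80 and 6.81 FPKM in BCP against 6.74, 6.66 and 2.57 FPKM in sBCP. In both genes BCP replicates 1 and 2 and sBCP replicate 4 were the low libraries, and the groups overlapped.

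Gabra2 made up 37.6% to 48.2% of the summed alpha subunits and Gabra3 19.2% to 26.5%. Gabra3, an alpha subunit carried by the X chromosome, was at 3.94, 4.06 and 5.01 FPKM in BCP against 6.65, 4.62 and 4.77 FPKM in sBCP. Its highest library was sBCP replicate 1, and the groups overlapped. Gabra4 held 1.39% to 2.91% of the alpha sum.

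Gabra5, an alpha subunit of receptors outside the synapse, was high in BCP replicate 2 alone. It was at 1.47, 3.66 and 1.64 FPKM in BCP against 1.22, 1.58 and 1.28 FPKM in sBCP, and is singled out here after its values were seen. In that library it made up 18.1% of the alpha sum, against 4.69% to 8.78% in the others. The same library held 224 FPKM of Npy, 40.8 FPKM of Atf3 (3.72 to 7.57 FPKM elsewhere) and 46.3 FPKM of Gal (9.74 to 15.4 FPKM elsewhere), and the part of axon injury genes in the Gabra5 value was not tested. Luzp2, at 3.37 to 6.45 FPKM, covers the whole of Gabra5 on the other strand, and since the use of strand in counting is unknown, the value of Gabra5 is uncertain. In BCP replicate 2 Luzp2 was at 4.77 FPKM, and its highest library was sBCP replicate 1. Luzp2 also covers Gabrg3 on the other strand, and Gabrg3 was at 0.173 FPKM at most. The part of Luzp2 in the Gabra5 value was not tested.

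GABA-A genes lie in clusters on the chromosomes, and neighbours within a cluster differed widely in level. With gaps of at most 1 Mb between genes, 15 of the 18 lay in 5 clusters. On chromosome 14 Gabrb1 (38643385 to 39112600) was at 0.131 FPKM at most and Gabra4 at 0.361 to 0.523 FPKM, while Gabra2 reached 12.6 FPKM and Gabrg1 (39964588 to 40049354) 6.81 FPKM. On chromosome 10 Gabrb2 (27973681 to 28187565) was at 0.148 FPKM at most. On chromosome 1 Gabrg3 was at 0.173 FPKM at most, and Gabra5, which lies 22.0 kb from it, was at 1.22 to 3.66 FPKM.

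On chromosome X Gabra3 was expressed between Gabre, at 0.122 to 0.234 FPKM, and Gabrq, at 0.0816 FPKM at most. The cluster on chromosome 5, with the rho subunits Gabrr2 and Gabrr1, held no tested gene, and Gabrr1 was at 0.328 to 0.421 FPKM. Each cluster of chromosomes 1, 14 and X thus held both a tested gene and a gene under 0.5 FPKM in every library. Gabrd, the delta subunit of receptors outside the synapse, was listed at 0 in 5 libraries and at 0.0366 FPKM in sBCP replicate 4.

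**Figure D2:**
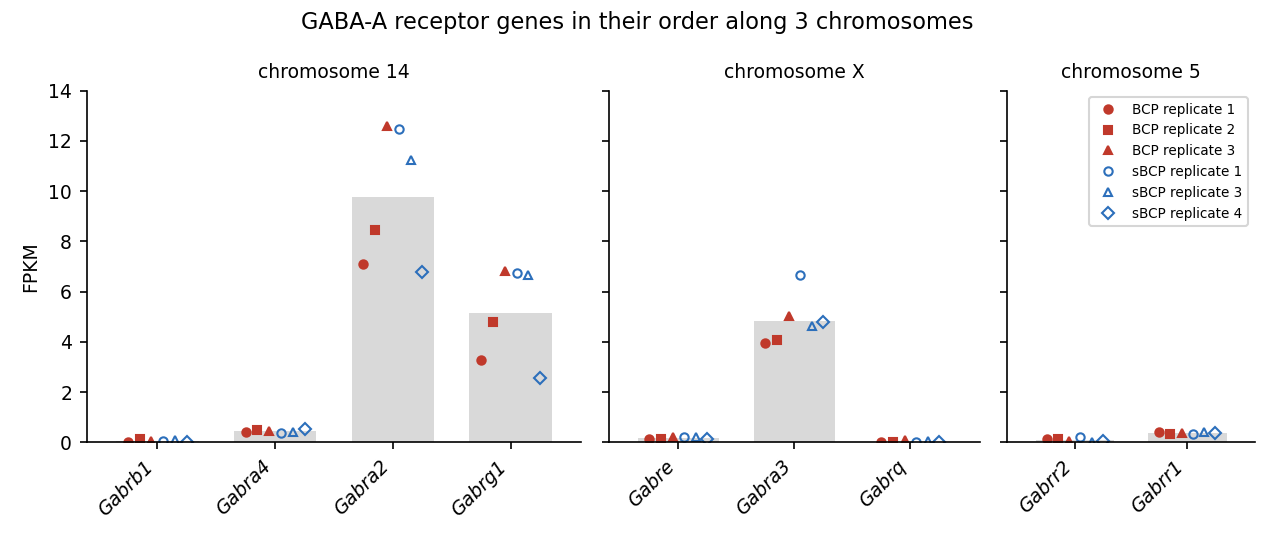
FPKM of 9 clustered GABA-A receptor genes in their order along chromosomes 14, X and 5, not to scale in distance, with grey bars for the mean over 6 libraries and marks for each library. Gabra2, Gabrg1 and Gabra3 stand beside genes near 0 such as Gabrb1 and Gabrq.

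Kainate receptor genes were all tested, and Grik1 led them. Grik1 encodes GluK1, the kainate subunit known from small sensory neurons (chromosome 11, 27811957 to 27971359). It was at 32.0, 33.0 and 43.8 FPKM in BCP against 39.8, 38.1 and 41.9 FPKM in sBCP, which was 51.9% to 62.1% of the summed kainate subunits. BCP replicates 1 and 2 were the lowest libraries and BCP replicate 3 the highest, so the groups overlapped.

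Grik5 and Grik4 encode the high-affinity subunits, which need a partner of the Grik1 to Grik3 group to form channels. Grik5 was at 14.6, 15.1 and 12.7 FPKM in BCP against 13.2, 13.6 and 15.3 FPKM in sBCP, and Grik4 at 11.5, 11.6 and 10.1 FPKM in BCP against 9.40, 11.2 and 12.0 FPKM in sBCP. Grik2 was at 1.64 to 2.67 FPKM and Grik3 at 0.881 to 2.11 FPKM. Grik1 was thus the main partner gene by level, with Grik2 at 2.33% to 4.22% and Grik3 at 1.39% to 3.23% of the kainate sum.

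AMPA receptor genes were low and even. Gria4 was at 1.64 to 2.46 FPKM, Gria2, whose edited subunit blocks the passage of calcium, at 1.42 to 2.43 FPKM, Gria1 at 1.07 to 1.74 FPKM and Gria3 at 1.01 to 1.97 FPKM. Gria2 made up 26.0% to 29.5% of the AMPA sum and Gria4 27.3% to 32.4%. The sum of the 4 genes was 6.91 ± 1.39 FPKM in BCP and 7.18 ± 1.66 FPKM in sBCP (SD, n = 3 each), about the level of the single metabotropic gene Grm7. In the delta group values were of the same order, with Grid1 at 2.26 to 3.37 FPKM and Grid2ip at 1.59 to 2.98 FPKM.

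NMDA receptor genes were uneven, with the shared subunit far above its partners. Grin1, the subunit found in every NMDA receptor (chromosome 3, 2506896 to 2534663), was at 31.6, 25.9 and 26.3 FPKM in BCP against 22.4, 25.9 and 31.8 FPKM in sBCP. The 4 Grin2 genes, whose subunits bind glutamate, summed to only 0.690 to 1.12 FPKM. Grin1 was 21.4 to 38.9 times that sum over the libraries.

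Of the Grin2 genes, Grin2b reached 0.736 FPKM and Grin2d 0.565 FPKM, while Grin2a and Grin2c stayed at or under 0.140 FPKM. The Grin3 genes, whose subunits bind glycine, were tested, with Grin3a at 1.13 to 1.98 FPKM and Grin3b at 1.72 to 2.53 FPKM. Palm, at 80.9 to 94.5 FPKM, covers Grin3b on the other strand, and since strand-specific counting is not stated in the sources used here, the value of Grin3b is uncertain.

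Metabotropic glutamate receptors were almost wholly those of group III, which held 97.7% to 99.1% of the summed level of the 8 genes. Grm7, a receptor of presynaptic terminals (chromosome 4, 142780987 to 143367578), was at 6.23, 6.80 and 8.12 FPKM in BCP against 6.56, 7.00 and 8.09 FPKM in sBCP. Grm4, a close relative, was at 7.56, 5.47 and 5.85 FPKM in BCP against 5.56, 6.73 and 7.23 FPKM in sBCP. Ppil1, at 13.7 to 15.8 FPKM, covers Grm4 on the same strand, so reads shared by both would make its level uncertain.

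Grm8 was at 2.03, 2.10 and 2.46 FPKM in BCP against 1.32, 1.86 and 1.75 FPKM in sBCP, with all BCP libraries above all sBCP libraries. The group I gene Grm5, which acts through phospholipase C, was at 0.0913 FPKM at most, and the group II genes Grm2 and Grm3 at 0.0286 and 0.223 FPKM at most. Grm6, the group III receptor of the retina, was at 0.0837 FPKM at most.

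**Figure D3:**
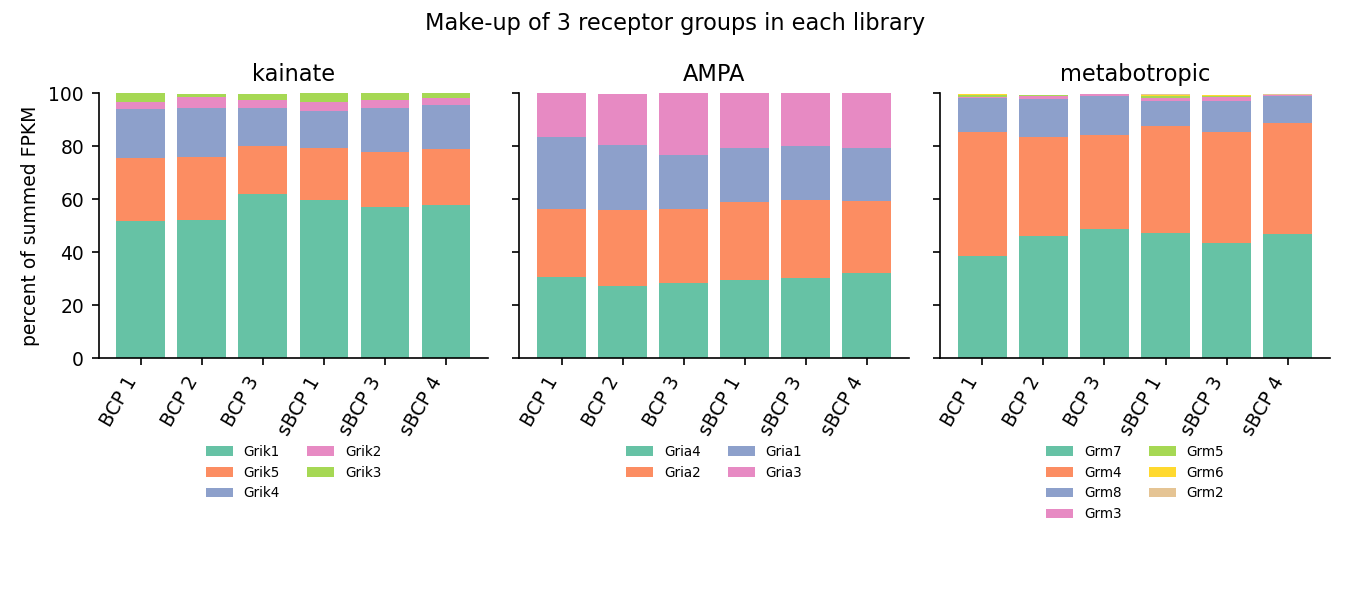
Percent of the summed FPKM that the named genes hold within the kainate, AMPA and metabotropic groups, one stacked bar per library. Grik1 forms the largest kainate share in all 6 libraries, at 51.9% to 62.1%, while the 4 AMPA genes lie closer together.

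No receptor gene passed the test of BCP against sBCP, which asked what differs in the ganglia after living rather than boiled tumour cells. On log2(FPKM + 1), a scale that understates the change of low genes, limma called 0 of the 27 tested receptor genes higher and 0 lower at a Benjamini-Hochberg adjusted p under 0.05 over all 13710 tested features, of which it called 0.0146% higher and 0.168% lower (0.182% in either direction). It gave 0 receptor genes an unadjusted p under 0.05, against 1.98% of all tested features. The adjusted p from limma was 1.00 for each of the 27. Differences of BCP minus sBCP ran from -0.24 for Gabra3 to 0.41 for Gabra5, with a median of -0.04 beside -0.01 over all tested features. Of the 27 genes 10 lay above 0, where 45.5% of all features did. Of the 47 genes, 0 are marked as significant in the authors' deposited table and the smallest p-value there is 0.0708, for Gabra5.

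A gene that did not pass is not shown to be unchanged. The intervals are on log2(FPKM + 1) and are narrower than those of fold changes for genes at a few FPKM: with a pseudocount of 0.01 the difference of Grm8 was 0.43 in place of 0.28 and that of Gabra5 0.61 in place of 0.41. Genes given here for the width of their interval were chosen after the values were seen. The 95% interval lay within 1 log2 unit on either side of 0 for 26 of the 27 genes and within 0.5 for 14. The narrowest was that of Gabbr1, with a difference of 0.02 and an interval from -0.15 to 0.19. Gabbr2 followed with a difference of -0.06 and an interval from -0.27 to 0.14, and Grik5 with 0.01 and an interval from -0.22 to 0.24. The widest was that of Gabrg1, with a difference of -0.04 and an interval from -0.87 to 0.78. For Gabra5 the interval ran from -0.19 to 1.00.

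The genes that mark this set were near or below 0. Grik1 had a mean of 36.3 ± 6.51 FPKM in BCP and 39.9 ± 1.88 FPKM in sBCP (SD, n = 3 each), a difference of -0.15 on the log2 scale with a standard error of 0.12 (limma unadjusted p = 0.269). Its difference was -0.29 without BCP replicate 3 (limma unadjusted p = 0.0109, adjusted p = 0.992) and -0.07 without BCP replicate 1. Gabra2 was at 9.38 ± 2.84 FPKM against 10.2 ± 2.99 FPKM, a difference of -0.10 with a standard error of 0.26 (limma unadjusted p = 0.714). Grm7 was at 7.05 ± 0.972 FPKM against 7.21 ± 0.786 FPKM, a difference of -0.03 with a standard error of 0.13 (limma unadjusted p = 0.809). The sign of this difference did not hold for Gabra2 without BCP replicate 1 (0.06) or sBCP replicate 1 (0.06). Nor did it hold for Grm7 without BCP replicate 1 (0.04) or sBCP replicate 4 (0.04), or with quantile normalization (0.00375). With the replicate number as a block, where only replicates 1 and 3 enter the group difference, Grm7 was at 0.06.

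Groups that did not overlap were seen in 1 of the 27 tested genes, Grm8, which was higher in BCP, beside 5.40% of all tested features in either direction (2.34% higher and 3.06% lower). Grm8 had a mean of 2.20 ± 0.230 FPKM in BCP and 1.64 ± 0.289 FPKM in sBCP (SD, n = 3 each), and the difference was 0.28 with a standard error of 0.14 and an interval from -0.06 to 0.61 (limma unadjusted p = 0.0899, adjusted p = 1.00). Its share of the metabotropic sum was 12.6%, 14.3% and 14.8% in BCP and 9.51%, 11.6% and 10.2% in sBCP. Leaving out single replicates moved the Grm8 difference between 0.185 and 0.337. It was lowest without sBCP replicate 1 (limma unadjusted p = 0.244). Gabra5 had the largest positive difference, 0.41 with a standard error of 0.25 (limma unadjusted p = 0.150). Its difference was 0.12 without BCP replicate 2 and 0.09 with the replicate number as a block. The block also takes BCP replicate 2 out of the comparison, as its number is absent from sBCP, so it is not a separate check.

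**Figure D4:**
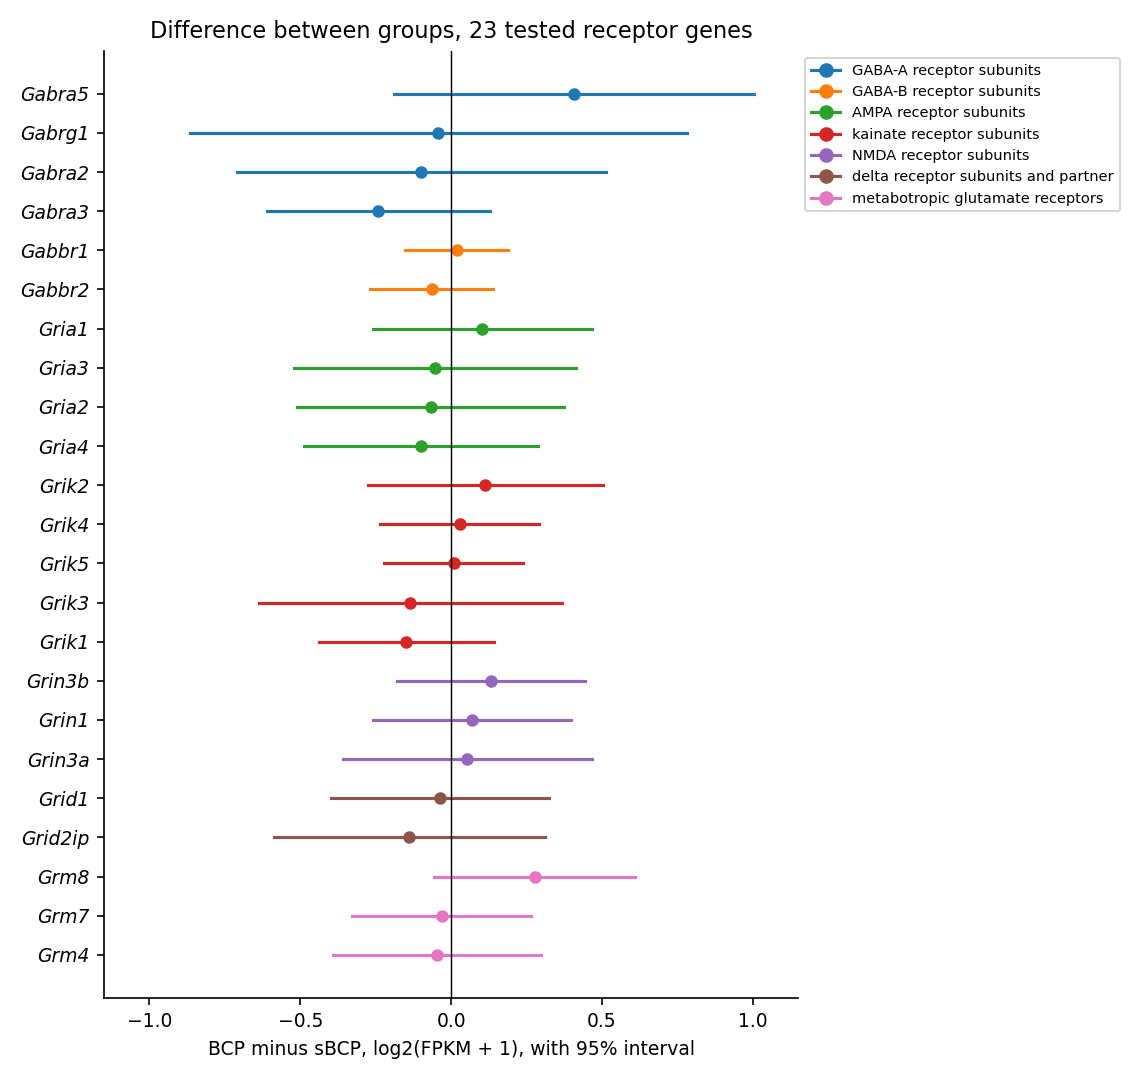
Difference of BCP minus sBCP on log2(FPKM + 1) for 23 tested receptor genes, coloured by family, with 95% intervals from limma. All intervals drawn include 0, and that of Gabra5 reaches furthest up, to 1.00.

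By family the median differences lay between -0.10 and 0.07. The intervals of single genes were wider, and for GABA-A genes 0 of 7 lay within 0.5 on either side of 0. GABA-A genes had 1 of 7 above 0 with a median of -0.10, GABA-B genes 1 of 2 with -0.02, and AMPA genes 1 of 4 with -0.06. Kainate genes had 3 of 5 above 0 with a median of 0.01, NMDA genes 3 of 3 with 0.07, metabotropic genes 1 of 3 with -0.03, and the delta group 0 of 3 with -0.04. Each family had 0 genes called by limma and 0 at an unadjusted p under 0.05. The summed level of the GABA-A genes was 37.0, 42.3 and 55.5 FPKM in BCP and 56.8, 54.0 and 37.0 FPKM in sBCP, so that each group held both low and high libraries.

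The libraries differed among themselves within a group. For 8 of the 27 tested genes the 3 lowest libraries were BCP replicates 1 and 2 and sBCP replicate 4, which is 29.6% of them, beside 17.4% of all tested features. They included Gabra2, Gabrg1, Gria2, Gria3 and Gria4. Grik4 and Grik5 ran the other way, with these libraries as their 3 highest. This split of the libraries was singled out after the values were seen. It was the commonest split both among the 27 genes and over all tested features. The summed pan-neuronal markers were at 13043, 13489 and 12150 FPKM in BCP against 10931, 12240 and 13800 FPKM in sBCP, so the libraries low in those GABA-A and AMPA genes were the 3 highest in this sum. Genes of high level carry most of this sum, and the list did not move together. Uchl1, Tubb3 and Prph had those libraries as their 3 highest, while Elavl3, Elavl4 and Map2 had them as their 3 lowest. The rest of the list showed neither order. BCP replicate 1 and sBCP replicate 4 also had the fewest features at 1 FPKM or more. They had 13404 and 13240, against 13568 to 13881 in the other libraries. The part of neuronal content or of this trait of the whole table in the differences between libraries was not tested.

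**Figure D5:**
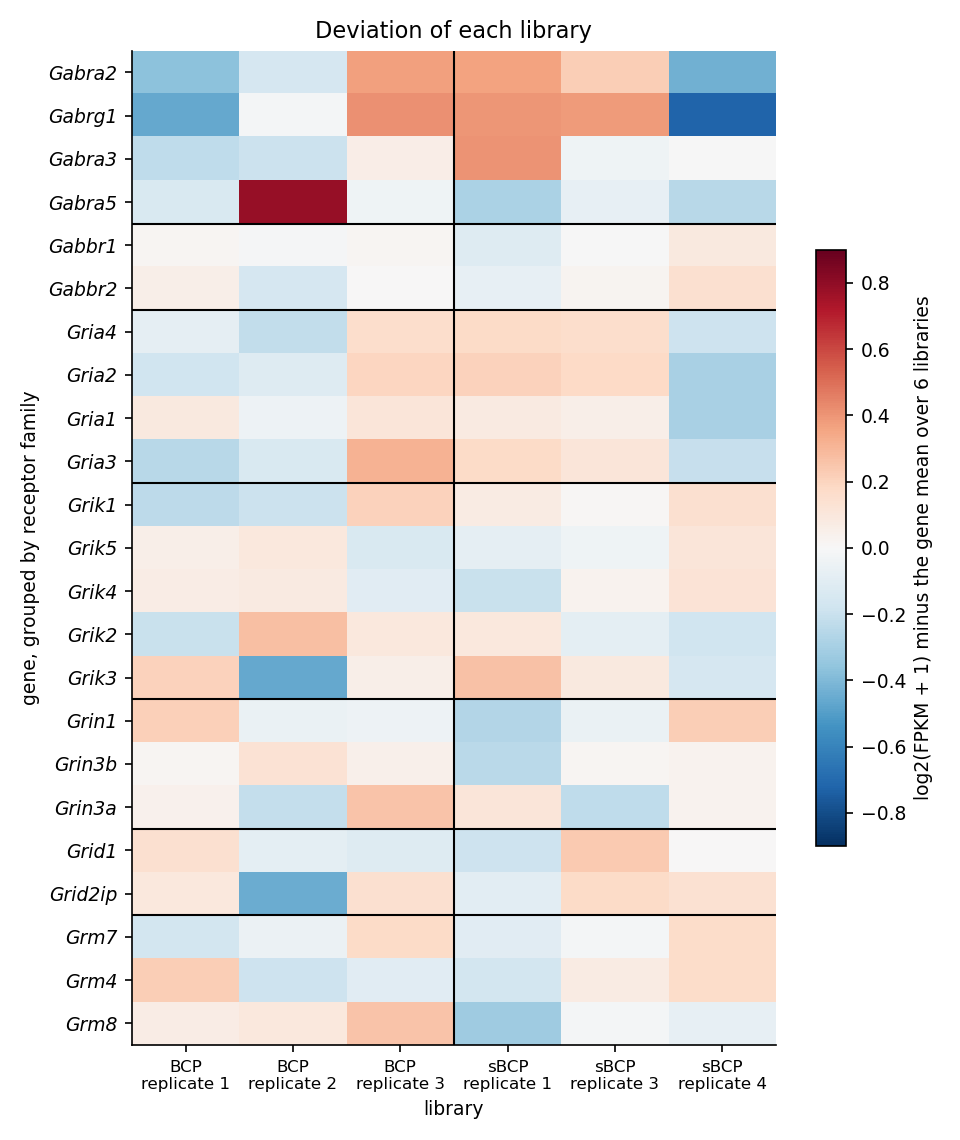
Deviation of each library from the gene's mean over the 6 libraries on log2(FPKM + 1), with genes in rows by family and libraries in columns. Rows such as Gabra2, Gria2 and Gria4 are blue in BCP replicates 1 and 2 and sBCP replicate 4 and red in the other libraries, and Gabra5 is dark red in BCP replicate 2 alone.

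Genes that make, carry and anchor these transmitters and receptors were compared from 7 lists. Of their 88 tested genes limma called 0, beside 0.182% of all tested features, and gave 0 an unadjusted p under 0.05, beside 1.98%. Of 6 tested genes of GABA synthesis, release and uptake 1 lay above 0, with a median of -0.13, led by the transporter Slc6a11 (difference of -0.15, limma unadjusted p = 0.341), Maob and the transporter Slc6a13. Gad1 and Gad2, which make GABA, reached 0.554 and 0.108 FPKM at most, and the vesicular GABA transporter Slc32a1 was listed at 0 in all libraries. The chloride transporters had 1 of 5 above 0 and a median of -0.04, with Slc12a7 and Slc12a4 among the smallest p. Slc12a2, which brings chloride into sensory neurons, was at 11.4 to 18.7 FPKM, and Slc12a5, which takes it out of central neurons, at 0.306 FPKM at most. These 2 and the GABA-making genes were named after their values were seen.

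The partners of GABA receptors had 10 of 15 above 0 and a median of 0.02. Lhfpl4, which holds GABA-A receptors at synapses, had the smallest p of all 88 genes (difference of -0.19, standard error of 0.10, limma unadjusted p = 0.102), and Hap1 and Shisa7 followed. Genes of glutamate synthesis, release and uptake had 9 of 14 above 0 and a median of 0.03, with the glutamine carriers Slc38a1 (-0.23) and Slc38a2 (-0.08) and the aminotransferase Got2 (0.11) at the smallest p. The vesicular glutamate transporter Slc17a7 was at 95.9 to 128 FPKM and Slc17a6 at 10.7 to 15.1 FPKM, both named after their values were seen. Genes that supply the NMDA co-agonists glycine and serine had 4 of 7 above 0 and a median of 0.02, led by Phgdh (0.15), Psph (0.09) and Shmt2 (0.10).

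Auxiliary subunits of AMPA and kainate receptors had 9 of 15 above 0 and a median of 0.06. The AMPA partner Cacng4 (0.10), Abhd6 (0.10) and the kainate partner Neto2 (-0.15) had the smallest p, from 0.272 to 0.296 unadjusted by limma. Scaffolds and signalling partners of glutamate receptors had 13 of 26 above 0 and a median of 0.00074. They were led by the kinase Camk2a (-0.13, limma unadjusted p = 0.141) and the scaffold Shank2 (-0.48). The groups did not overlap for 1 of the 26, beside 5.40% of all tested features. This was Dlg3 (0.21, higher in BCP, limma unadjusted p = 0.240). It was at 1.17, 1.21 and 1.27 FPKM in BCP against 1.13, 1.07 and 0.589 FPKM in sBCP, so sBCP replicate 4 stood apart.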

How the data were processed

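Per the labels' protocols, polyadenylated RNA from 5 µg of total RNA of each of 6 ganglion samples was sequenced in pairs. The authors deposited FPKM values per gene and sample. Per the file headers they also gave each gene p-values and q-values. Their test, aligner, annotation, genome build and use of strand are not given in the sources used here. A feature was tested where 3 of 6 samples reached 1 FPKM (13710 of 23800). All were fitted together on log2(FPKM + 1) by limma 3.58.1, run in R 4.3.3 (empirical Bayes with a trend of variance on mean, no covariate) and adjusted by Benjamini-Hochberg at 0.05. The members and gene lists were chosen with earlier results of these data known. Named with a test were Gabra2, Grik1, Grm7 and tested members with an unadjusted p under 0.05 or groups that did not overlap. Of each family the 3 highest tested members are given by level, and of each list up to 3 genes with the smallest p. Other genes given with a difference were chosen after their values were seen. Some genes under this rule are not reported here and not drawn, though counts and sums include them. Depth is unknown, so no counting interval is given, and a value listed at 0 can be a failed estimate. No libraries shared all values (0 pairs). The fit was repeated with other pseudocounts, filters and scalings, without the variance trend, with robust moderation or array weights, with replicate number as a blocking term, and without each sample in turn. Promoter windows came from RefSeq. Figures used matplotlib 3.10.9.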

Additional observations from a re-analysis of the deposited data

How the results depend on the processing

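Under all 17 alternatives run, limma called 0 receptor genes higher, 0 lower and 0 genes of the 7 lists, and the median difference lay between -0.11 and 0.01. Over all tested features, the same alternatives called 0 to 10 higher and 13 to 35 lower. The array weights had not converged. The count of receptor genes at an unadjusted p under 0.05 was 1 without the variance trend (Grm8, with 2.18% of all features), 1 with array weights (9.20%), and 0 to 2 when single replicates were left out (2 without BCP replicate 3, among them Grik1, beside 3.01% of all features, and 1 without sBCP replicate 4, beside 3.77%). The count with groups that do not overlap was 5 of 47 with no filter (5.63% of all features), 2 with quantile normalization (5.49%), and 1 to 5 without single replicates (9.91% to 20.4%). Leaving out replicates moved Gabra2 between -0.340 and 0.0618 and Grm7 between -0.125 and 0.0433, Grm7 was at 0.00375 with quantile normalization, and the cause of these changes of sign was not tested. Grik1, Grm8 and Gabra5 kept their sign under all 17 alternatives, but many of these could not have changed it. The groups of Grm8 did not overlap, so leaving out a replicate or changing the pseudocount could not reverse its sign. Changes of filter, variance trend or robust moderation left the differences of all 3 genes as they were. The labels give replicate numbers 1 and 3 to both groups, and the deviations of same-numbered libraries correlated at 0.06 and -0.10 across 13710 genes. Libraries of different numbers were not compared in this way, so these values cannot show whether the samples are paired. With the replicate number as a block, 0 receptor genes were called, Grm7 was at 0.0630, and the calls over all features were 10 higher and 28 lower in place of 2 and 23. Only replicates 1 and 3 enter that group difference. BCP replicate 2 and sBCP replicate 4 have no library of the same number in the other group. The unknown depth limits what can be said of the 20 genes under the filter.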

Other observations

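Among the 20 receptor genes under the filter the groups did not overlap for 4, all at 0.148 FPKM or less. This was so for 512 of the 8528 features under the filter that were above 0 in a library. These genes were chosen after their values were seen, and genes listed at 0 carry no fold. Gabrb2, a beta subunit of the GABA-A receptor, was at 0.0523, 0.0792 and 0.0984 FPKM in BCP against 0.148, 0.144 and 0.141 FPKM in sBCP. Grin2a, an NMDA subunit, was at 0.103, 0.0590 and 0.140 FPKM in BCP against 0.0451, 0.0375 and 0.0154 FPKM in sBCP. The rho subunit Gabrr3 was at 0.0525, 0.0806 and 0.0482 FPKM in BCP, at 0.0295 FPKM in sBCP replicate 4 and listed at 0 in the other sBCP libraries. Grm2 was listed at 0 in all BCP libraries and was at 0.0281, 0.0218 and 0.0286 FPKM in sBCP. With no filter on low values limma called 0 of the 47 receptor genes, beside 1 higher and 21 lower of all 22238 features. It gave 0 of the 47 an unadjusted p under 0.05, beside 2.67% of all features. Their smallest limma unadjusted p was 0.0646, for Gabrb2.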
